A study of Mus musculus with 8 samples.

Results

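The type I interferon response genes are those that cells switch on when interferon-α or interferon-β reaches its receptor. The list holds 35 mouse genes, chosen by name and found by gene symbol, and all 35 were among the 47729 genes of the deposited tables. They were followed in bulk RNA sequencing of polyA RNA from γδ (gamma delta) T cells, which had been sorted out of visceral fat of C57BL/6 mice. Mice ate control chow (4 samples) or a ketogenic diet (KD, 4 samples), which is poor in carbohydrate and rich in fat, and feeding lasted 1 week. Whether a sample was a single mouse or a pool is not given in the labels, so p-values reflect only how these samples spread, and that spread may be technical. Age and sex are not given either, and both diets used the same strain. Samples are called chow 1 to 4 and KD 1 to 4, by the numbers in their titles.

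Interferon-α and interferon-β bind a receptor made of the IFNAR1 and IFNAR2 chains. The kinases JAK1 and TYK2 on that receptor then phosphorylate STAT2, which joins IRF9 in a complex that binds the interferon-stimulated response element in promoters. The genes it switches on encode sensors of foreign nucleic acid, inhibitors of viral replication and translation, and brakes on the pathway itself. Interferon-γ acts through another receptor, and its signal ends mainly at the gamma-activated site. Most nucleated cells keep low resting levels of these transcripts, and adipose tissue γδ T cells are best known for interleukin-17 rather than for antiviral roles.

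Library totals ran from 19796112 to 31926427 estimated counts, and a floor of 3 counts equalled 0.0947 to 0.152 CPM (counts after scaling each library to the same total) in a single library. The summed level of 12 γδ T cell markers was 11900 to 12600 CPM on chow and 12500 to 12800 CPM on KD. Markers of other cells were also present and differed between libraries. All 7 endothelial markers together reached 409 CPM in KD 3 and 673 CPM in KD 4, against 53.7 to 117 CPM in the other libraries. Most of these 2 sums was Fabp4 (216 and 386 CPM), Pecam1 (121 and 108 CPM) and Aqp1 (41.6 and 145 CPM). Pecam1 was at 39.6 to 72.8 CPM on chow. Kdr alone did not exceed the chow libraries in KD 4 (0.324 CPM, against 5.39 CPM in chow 1). The 10 stromal and mesothelial markers summed to between 0.627 and 175 CPM on chow and between 20.8 and 481 CPM on KD. The sum of 11 macrophage and monocyte markers, without Ccr2, which stood near 1500 CPM in these cells, was 5.56 to 97.9 CPM on chow and 3.29 to 40.7 CPM on KD. For plasmacytoid dendritic cells, a major source of interferon-α in the body, Siglech and Klk1 were at 0 in every library, and all 6 markers summed to 4.42 to 9.45 CPM on chow and 5.53 to 18.6 CPM on KD, with the highest value in KD 4. B cell markers (4) summed to 30.7 to 46.9 CPM on chow and 59.4 to 87.9 CPM on KD, so the diets did not overlap, and αβ T cell markers (5) summed to 54.5 to 89.6 CPM on chow and 87.9 to 128 CPM on KD. Nearly all of the αβ T cell sum was Trac (74.4 ± 16.5 CPM on chow and 106 ± 17.0 CPM on KD, SD, n = 4 each), while Cd4 was at 0 in every library and Cd8a, Cd8b1 and Foxp3 each averaged under 1 CPM on both diets. Dendritic cell markers (5) reached at most 40.0 CPM, adipocyte markers (4) 1.71 CPM and neutrophil markers (4) 0.0316 CPM in any library. Most of the dendritic cell sum was Xcr1 (20.7 ± 4.79 CPM on chow and 30 ± 6.22 CPM on KD, SD, n = 4 each). Clec9a, another dendritic cell marker, was at 0 in every library. The part of all these other cells in the results was not tested.

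No type I interferon response gene passed the test for a difference between the diets. Of the 35 genes, 30 had enough counts to be tested, and edgeR's quasi-likelihood test called 0 higher and 0 lower in KD at an adjusted p under 0.05, against 0.508% of all 13397 tested genes (68 genes, 44 higher and 24 lower). DESeq2 also called 0 of the 30. An unadjusted p under 0.05 was reached by 0 of the 30, against 8.64% of all tested genes. The log2 fold change, KD minus chow, was positive for 16 and negative for 14 of them, with a median of 0.02, and the median over all tested genes was 0.01. The diets did not overlap for 1 of the 30, Mx1, which is 3.33% against 6.05% of all tested genes. In bulk samples, fewer cells that express a gene and less RNA per cell cannot be told apart. A p that misses the threshold does not show equal levels, and the intervals say what the samples could resolve. For 15 of the 30 genes the 95% interval of the fold change lay within 2-fold either way, against 58.6% of all tested genes, and for the other 15 it reached beyond 2-fold.

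The genes spanned a wide range of resting levels. By mean FPKM over all 8 libraries, a level per kilobase of transcript that allows genes to be compared, 15 of the 35 were at 10 or above, 14 lay between 1 and 10, and 6 were under 1. Ifi27, which encodes a small membrane protein, stood at the top with 88.7 ± 8.40 FPKM in chow and 77.3 ± 13.8 FPKM in KD (SD, n = 4 each). Bst2, the gene for tetherin, which holds budding virus particles at the cell surface, came next with 75.5 ± 11.7 FPKM in chow and 86.8 ± 10.7 FPKM in KD. These neighbours in the order overlapped within each diet's spread. Ifi35, Zbp1 and Irf7 followed, with mean FPKM of 62.5, 57.8 and 33.9. A count was present in every library for 27 of the 35 genes, and 8 genes were listed at 0 FPKM in at least 1 library.

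**Figure D1:**
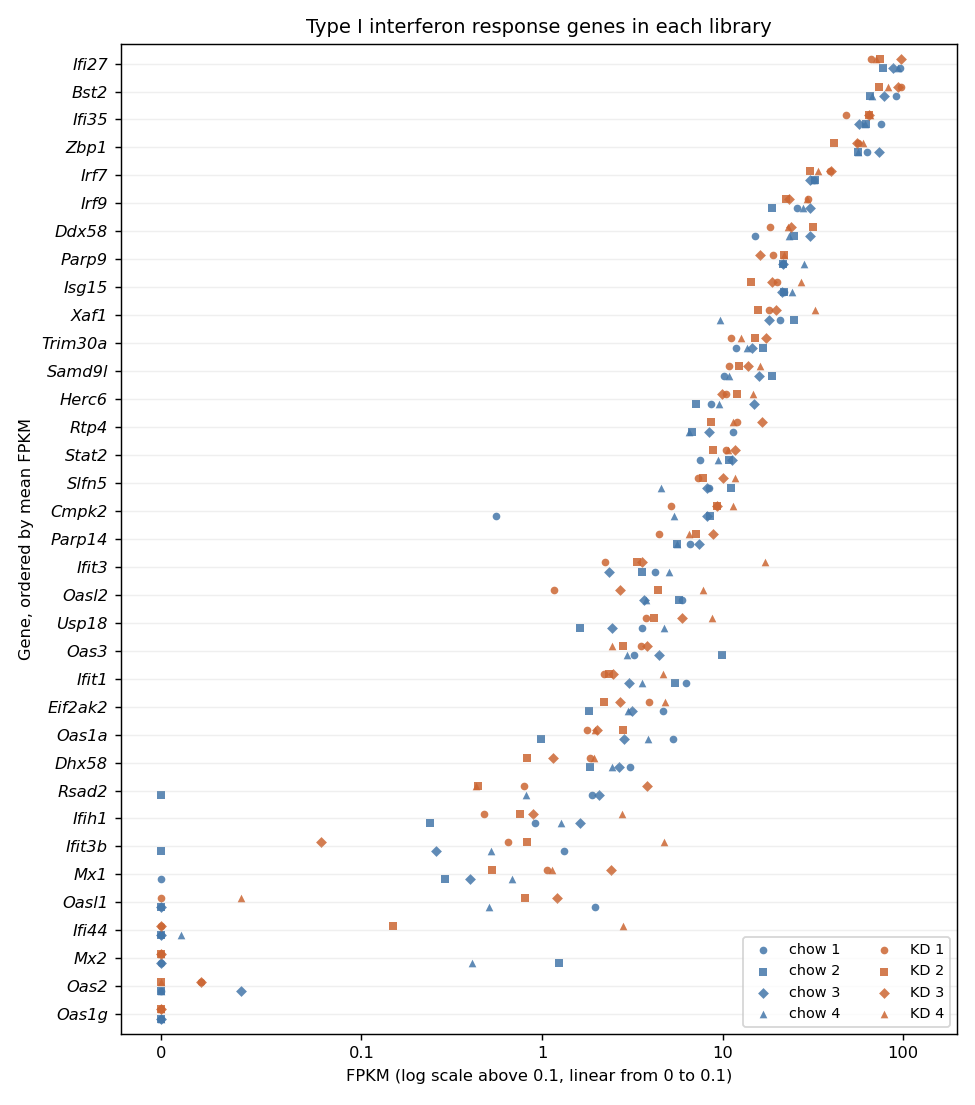
Deposited FPKM (log axis) of each type I interferon response gene in each of the 4 chow and 4 KD libraries, with genes ordered by mean level. Points of both diets lie over each other for the abundant genes, and the spread widens among the genes with mean FPKM under 10.

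Promoter sequence was available from RefSeq (build GRCm38.p6, from 250 bases before to 50 bases after the annotated start) for 25 of the 35 genes. The core of the interferon-stimulated response element, searched on both strands as GAAANNGAA, was present in the promoters of 17 of these 25 genes, 68%, and in 9.75% of all 26994 genes in the table. The gamma-activated site, searched as TTCNNNGAA, which reads the same on both strands, was present in 4 of the 25, 16%, and in 9.55% of all genes. Overlapping matches of the response element core were counted separately. A match describes the letters and shows no binding. Windows are shown for genes whose levels are described further on, in lower case with the matches to GAAANNGAA or its reverse complement TTCNNTTTC in capitals. They run 5′ to 3′ on the strand of the gene.

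The first pair belongs to abundant transcripts, Isg15 (chr4:156200864-156200908, minus strand) and Bst2 (chr8:71537576-71537614, minus strand). In Isg15 3 matches overlap in a row, and in Bst2 there are 2.
Isg15: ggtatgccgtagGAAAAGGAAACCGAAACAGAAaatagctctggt
Bst2: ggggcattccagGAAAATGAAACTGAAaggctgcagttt

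The Ifit genes lie in a cluster on chromosome 19, and their windows are shown because all 3 genes had values in KD 4 that stood apart from the other KD libraries. The windows are chr19:34640768-34640825 for Ifit1, chr19:34583362-34583447 for Ifit3 and chr19:34607758-34607843 for Ifit3b, all on the plus strand. The window of Ifit3b is identical to that of Ifit3, and the promoters of both genes share a run of 169 identical bases.
Ifit1: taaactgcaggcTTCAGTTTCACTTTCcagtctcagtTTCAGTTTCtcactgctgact
Ifit3: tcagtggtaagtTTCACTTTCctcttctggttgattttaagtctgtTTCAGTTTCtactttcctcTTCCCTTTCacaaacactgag

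The last pair shows a gene that stayed near the floor in most libraries and one that was counted in all. Ifi44 (chr3:151749893-151749925, minus strand) has 1 match next to its start. Oas1a (chr5:120907519-120907557, minus strand) has 2, and the same 39 bases stand in the promoter of its neighbour Oas1g, which had no count in any library.
Ifi44: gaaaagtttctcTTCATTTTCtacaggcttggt
Oas1a: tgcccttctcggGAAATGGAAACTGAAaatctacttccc

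**Figure D2:**
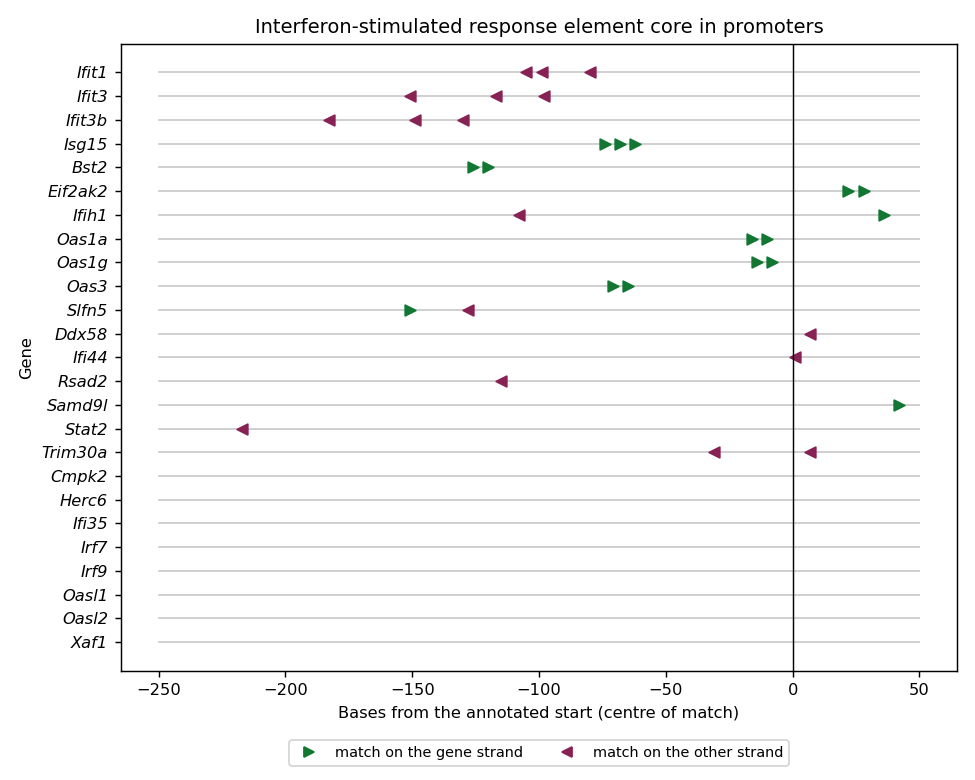
Position of each match to the response element core, in bases from the annotated start, in the promoters of the 25 genes with a RefSeq entry. Grey lines are the 300 bases searched, triangles point along the strand of the match, and 17 genes have at least 1 match.

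The 4 sensors of foreign nucleic acid showed no call. Ddx58 encodes RIG-I, a sensor of viral RNA ends, and measured 46.3, 76.9, 96.1 and 76.7 CPM in chow 1 to 4 and 61.5, 98.8, 71.5 and 64.8 CPM in KD 1 to 4. The highest and the lowest of these libraries were a KD and a chow sample, and the diets overlapped throughout. Its log2 fold change was 0.00 (adjusted p = 0.998, SE 0.22), with a 95% interval from -0.49 to 0.50. Ifih1, which encodes MDA5, a sensor of long double-stranded RNA, measured 3.22, 1.27, 5.34 and 4.87 CPM on chow and 1.38, 2.60, 3.94 and 8.61 CPM on KD. KD 4 was the highest and chow 2 the lowest, and the fold change of 0.17 (adjusted p = 0.978, SE 0.66) became -0.48 without KD 4. Dhx58 encodes LGP2, which tunes the signal of both. It measured 6.98, 4.19, 3.88 and 5.66 CPM on chow and 4.05, 1.92, 2.68 and 3.29 CPM on KD, so that KD 1 alone reached into the range of chow. Its log2 fold change was -0.80 (adjusted p = 0.677, SE 0.44), with an interval from -1.78 to 0.19. Zbp1, a sensor of left-handed nucleic acid that can start programmed cell death, was abundant and close between diets, with 54.7 to 73.3 CPM on chow and 45.1 to 65.2 CPM on KD (log2 fold change of -0.14, adjusted p = 0.878, SE 0.15).

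The 3 transcription factors of the response had small positive fold changes, and none passed the test. Irf7, the factor that amplifies interferon-α transcription, measured 47.2, 43.7, 44.5 and 48.7 CPM on chow and 58.3, 48.2, 61.8 and 49.1 CPM on KD. KD 2 lay inside the range of chow, KD 4 just above it, and KD 1 and KD 3 were higher. This gave a log2 fold change of 0.24 (adjusted p = 0.662, SE 0.13), with an interval from -0.04 to 0.52. For Irf9, the DNA-binding part of the complex with STAT2, the range was 41.8 to 67.5 CPM on chow and 50.6 to 67.5 CPM on KD, with a log2 fold change of 0.04 (adjusted p = 0.981, SE 0.17). Stat2 ranged from 32.6 to 49.3 CPM on chow and from 38.2 to 50.9 CPM on KD, with a log2 fold change of 0.09 (adjusted p = 0.947, SE 0.16). Both sets of libraries overlapped across most of their range.

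The 2-5A synthetases make short oligoadenylates that switch on the RNA-degrading enzyme RNase L. The listed genes of the wider family, Oasl1 and Oasl2 included, lie on chromosome 5. Of 6 family members, 3 were tested, and all of these had negative fold changes without passing the test. Oas3 measured 15, 44.4, 20.9 and 13.5 CPM on chow and 16.3, 12.9, 17.6 and 11.2 CPM on KD. Chow 2 stood above every other library, and the rest of the chow samples overlapped the KD samples. Its log2 fold change was -0.69 (adjusted p = 0.666, SE 0.37), and -0.18 without chow 2. Oas1a measured 9.66, 1.76, 5.18 and 7.15 CPM on chow and 3.19, 5.08, 3.64 and 3.56 CPM on KD, a log2 fold change of -0.62 (adjusted p = 0.83, SE 0.52). The spread among chow libraries was wider than that among KD libraries, with the lowest value of all in chow 2. Without chow 1 the log2 fold change of Oas1a was -0.28, and without chow 2 it was -0.92. Oasl2 measured 8.70, 6.33, 5.43 and 4.77 CPM on chow and 1.24, 6.36, 2.98 and 12.7 CPM on KD, where KD 1 was the lowest and KD 4 the highest of all (log2 fold change of -0.12, adjusted p = 0.985, SE 0.62, and -0.84 without KD 4).

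The other members of this family were at or near the floor. Oas1g had no count in any of the 8 libraries, and Oas2 had at most 1 count in a library. Oasl1, which in mouse restrains the translation of Irf7, had 73 counts in chow 1, 12 in chow 4, 25 in KD 2, 29 in KD 3 and 2 in KD 4, and none in the remaining libraries. Of the 50-base windows in the transcripts of Oas1a, 57.6% also occur in those of Oas1g, so reads from these parts could have been assigned to either gene.

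Among the genes that act on translation, Ifit3 had the widest gap in CPM between 1 library and the rest. Ifit3 and its near-copy Ifit3b belong to a family that binds viral RNA. Ifit3 measured 7.11, 5.88, 3.95 and 8.64 CPM on chow and 3.72, 5.61, 5.97 and 28.9 CPM on KD. KD 4 stood far above, and the other KD libraries lay within or just below the range of chow. The log2 fold change was 0.79 (adjusted p = 0.811, SE 0.62), with an interval from -0.59 to 2.17, and it was -0.33 without KD 4. Ifit3b measured 2.55, 0, 0.505 and 1.03 CPM on chow and 1.24, 1.62, 0.152 and 9.17 CPM on KD. Again KD 4 was the high library, and the log2 fold change of 1.58 (adjusted p = 0.843, SE 1.38) was -0.02 without it. Since 51.2% of the 50-base windows of Ifit3 also occur in Ifit3b, the sum of both is less open to how shared reads were divided. That sum was 7.42 ± 2.66 CPM on chow (SD, n = 4), at most 9.67 CPM in any library other than KD 4, and 38.1 CPM in KD 4.

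Ifit1, which binds RNA caps that lack a host methyl mark, measured 16.3, 13.8, 7.92 and 9.41 CPM on chow and 5.67, 6.06, 6.42 and 12.1 CPM on KD. KD 1, KD 2 and KD 3 lay below all chow libraries, and KD 4 lay within the range of chow. The log2 fold change was -0.65 (adjusted p = 0.676, SE 0.35), with an interval from -1.43 to 0.14. Eif2ak2 encodes PKR, a kinase that halts translation on double-stranded RNA, and ranged from 5.77 to 14.3 CPM on chow and from 5.46 to 11.9 CPM on KD (log2 fold change of -0.21, adjusted p = 0.944, SE 0.36).

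The ISG15 system attaches a ubiquitin-like protein to other proteins. Isg15 itself measured 15, 14.5, 14.6 and 17.0 CPM on chow and 13.6, 9.71, 12.8 and 18.7 CPM on KD. The KD libraries included both the lowest and the highest value, and the log2 fold change was -0.16 (adjusted p = 0.933, SE 0.24), with an interval from -0.68 to 0.37. Usp18, which removes ISG15 and dampens signalling at the receptor, measured 5.73, 2.51, 3.98 and 8.01 CPM on chow and 4.15, 6.77, 9.45 and 14.7 CPM on KD. KD 3 and KD 4 lay above the chow libraries and KD 1 and KD 2 within their range. The log2 fold change was 0.79 (adjusted p = 0.717, SE 0.48), with an interval from -0.28 to 1.87, and it was 0.42 without KD 4. Herc6, the main ISG15 ligase in mouse, ranged from 20.1 to 39.0 CPM on chow and from 31.9 to 43.4 CPM on KD (log2 fold change of 0.28, adjusted p = 0.796, SE 0.21), and 12% of its windows also occur in the overlapping gene Gm45193.

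Mx1 encodes a GTPase that blocks influenza virus in mice with an intact gene, which C57BL/6 and most other laboratory strains lack. It measured 0, 0.787, 0.884 and 1.29 CPM on chow and 2.86, 1.35, 5.41 and 3.10 CPM on KD, from 0, 21, 28 and 39 counts and 60, 36, 107 and 67 counts. Every KD library was above every chow library, but KD 2 and chow 4 were nearly level. The fitted log2 fold change was 2.09 (adjusted p = 0.636, SE 1.06), with an interval from -0.26 to 4.44, and Mx1 stayed uncalled. Its neighbour Mx2 had 26 counts in chow 2, 30 in chow 4 and none in the other libraries, and was not tested.

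Among the other genes that restrict viruses, Bst2 was the most abundant and the most precisely measured. It measured 62.6, 44.2, 54.6 and 47.4 CPM on chow and 66.7, 50.8, 64.4 and 57.3 CPM on KD, with overlap between the diets (log2 fold change of 0.20, adjusted p = 0.802, SE 0.15). Rsad2 encodes viperin, which makes a chain-terminating nucleotide, and Cmpk2, its neighbour on chromosome 12, encodes a nucleotide kinase. Rsad2 measured 4.98, 0, 5.71 and 3.11 CPM on chow and 2.95, 1.51, 8.14 and 1.48 CPM on KD, with a log2 fold change of 0.03 (adjusted p = 0.997, SE 1.14). Its low libraries were on both diets. Cmpk2 measured 1.76, 26.1, 25.9 and 17.3 CPM on chow and 16.0, 29.0, 29.1 and 36.1 CPM on KD. Chow 1 stood below all others, the remaining libraries overlapped in part, and the log2 fold change was 0.63 (adjusted p = 0.864, SE 0.61). Without chow 1 it was 0.25, and with the replicate number as a block 1.04. Rsad2 and Cmpk2 did not share their low library, since Rsad2 was at 0 in chow 2 and Cmpk2 was lowest in chow 1.

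The ADP-ribosyltransferase, TRIM, SAMD9 and Schlafen genes were mostly well measured, and 4 of these 5 had a 95% interval within 2-fold either way. Parp9, which works with the ubiquitin ligase DTX3L, ranged from 59.4 to 81.2 CPM on chow and from 45.3 to 60.6 CPM on KD. Of the KD libraries, KD 2 and KD 4 reached into the range of chow. Its log2 fold change was -0.27 (adjusted p = 0.677, SE 0.15). Exons of Parp9 overlap those of Dtx3l by 458 bases on the opposite strand, and whether the libraries kept strand is not stated. Parp14 ranged from 15.6 to 27.7 CPM on chow and from 21.6 to 39.4 CPM on KD (log2 fold change of 0.44, adjusted p = 0.727, SE 0.28). Trim30a, Samd9l and Slfn5 gave -0.12 (SE 0.20), -0.04 (SE 0.20) and -0.12 (SE 0.28) as log2 fold changes, with adjusted p of 0.939, 0.982 and 0.961. TRIM30a restrains NF-κB signalling in mouse cells, and SAMD9L restrains translation and growth.

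Of the remaining genes, Rtp4 had the smallest adjusted p of the whole list. Rtp4 encodes a receptor chaperone that also binds viral RNA. It measured 17.0, 9.89, 12.7 and 10.1 CPM on chow and 18, 13.0, 24.8 and 17.2 CPM on KD. KD 1, KD 3 and KD 4 lay above all chow libraries and KD 2 within their range. Its log2 fold change was 0.56 (unadjusted p = 0.0658, adjusted p = 0.617, SE 0.27), with an interval from -0.04 to 1.16, and it was 0.37 without KD 3. Ifi27 ranged from 56.3 to 69.1 CPM on chow and from 46.7 to 72.9 CPM on KD (log2 fold change of -0.17, adjusted p = 0.85, SE 0.15). Ifi35, a partner of the interferon-induced protein NMI, had 58.9 CPM in KD 1 and 79.3 to 81.9 CPM in the other KD libraries, against 70.8 to 92.5 CPM on chow (log2 fold change of -0.08, adjusted p = 0.939, SE 0.14). Xaf1, which binds the apoptosis inhibitor XIAP, ranged from 8.18 to 18.7 CPM on chow and from 11.4 to 21.7 CPM on KD (log2 fold change of 0.09, adjusted p = 0.978, SE 0.31). Ifi44 had 1 count in chow 4, 11 in KD 2 and 124 in KD 4, and none in the other 5 libraries. It was not tested because it failed the count filter.

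**Figure D3:**
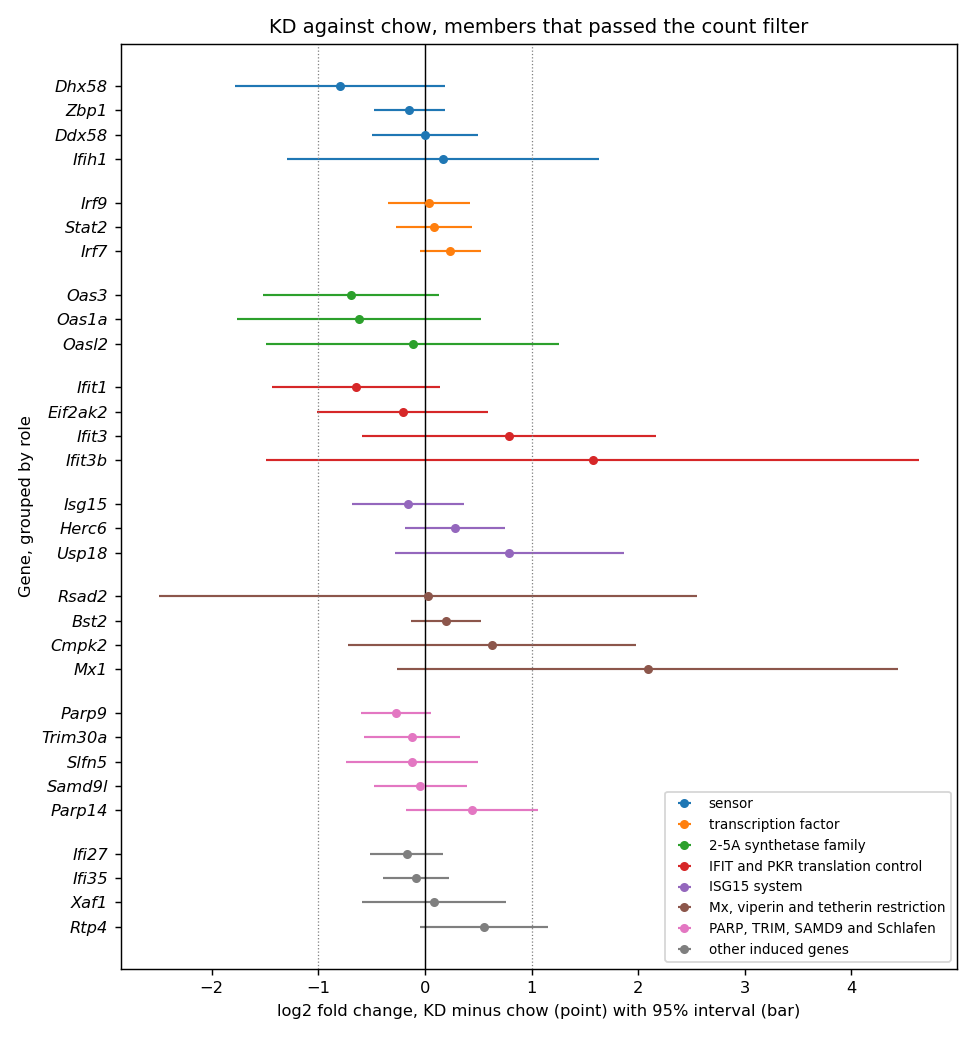
Log2 fold change, KD minus chow, of the 30 tested type I interferon response genes, with the 95% interval of edgeR's quasi-likelihood fit. Every interval includes 0, and the intervals widen from abundant genes such as Ifi27 to low ones such as Mx1, Rsad2 and Ifit3b.

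By library, KD 4 held the highest value of 11 of the 30 tested genes, 36.7%, against 15.5% of all tested genes. KD 3 held the highest value of 8, 26.7%, against 13.5% of all tested genes. KD 1 held the highest value of 1 gene and the lowest of 7, and chow 2 the lowest of 9. The genes highest in KD 4 included Ifih1, Irf9, Oasl2, Ifit3, Ifit3b, Isg15, Usp18, Herc6, Cmpk2, Samd9l and Xaf1. Those highest in KD 3 were Irf7, Stat2, Mx1, Rsad2, Parp14, Trim30a, Ifi27 and Rtp4. The median deviation of the 30 genes from their own means was 0.17 on the log2 scale in KD 4 and 0.01 in KD 3, and from -0.14 to 0.09 in the other libraries. KD 3 and KD 4 were also the libraries with 409 and 673 CPM of endothelial markers, and KD 4 had the highest sum of plasmacytoid dendritic cell markers, 18.6 CPM. That sum was Tcf4 (12.5 CPM) and Pacsin1 (6.16 CPM), with Siglech, Klk1, Cox6a2 and Ly6d all at 0 in KD 4. Dendritic cell and αβ T cell markers were also highest in KD 4, at 40.0 and 128 CPM. B cell markers were highest in KD 1 (87.9 CPM), and stromal and mesothelial markers in KD 2 (481 CPM). Macrophage and monocyte markers without Ccr2 were highest in chow 4 (97.9 CPM). The part of other cells' RNA in the values of the type I genes was not tested. The count filter was rerun for fits that left out libraries. Without KD 4 the median log2 fold change was -0.13 over 31 type I genes, with 11 positive and 20 negative (-0.001 over all tested genes). Without KD 3 and KD 4 together it was -0.22 over 32, with 11 positive and 21 negative (-0.006 over all tested genes). Leaving out the libraries that held the most of the highest values tends by itself to lower the median.

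**Figure D4:**
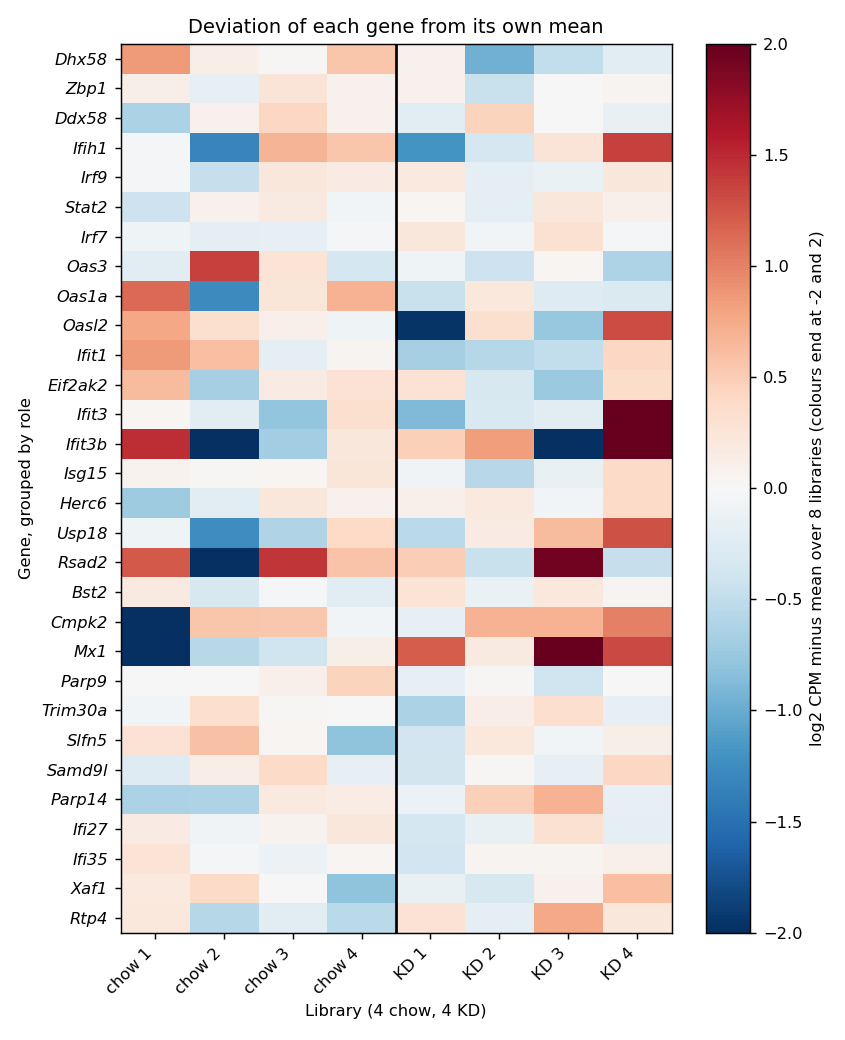
Log2 CPM of each of the 30 tested genes minus its own mean over the 8 libraries, with colours ending at -2 and 2. Red cells in the KD 4 column include Ifit3, Ifit3b, Ifih1, Oasl2, Usp18 and Mx1. Of these, Mx1 is also above its mean in every other KD library.

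The genes upstream of the response were read from a list of 38, of which 25 were tested. The 11 type I interferon genes on it had next to no counts. Of these, 10 had no count in any library, Ifnb1 among them, and Ifnk had 1 count in a single library. Both receptor chains were expressed. Ifnar1 measured 122 ± 26.8 CPM on chow and 121 ± 8.29 CPM on KD (SD, n = 4 each; log2 fold change -0.01, adjusted p = 0.995, SE 0.15). Ifnar2 measured 145 ± 18.1 CPM on chow and 108 ± 14.2 CPM on KD, a log2 fold change of -0.43 (SE 0.13) that did not pass the test (adjusted p = 0.277). Jak1, the kinase bound to the receptor, measured 895 ± 72.2 CPM on chow and 896 ± 93.3 CPM on KD.

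Irf8, a factor induced by interferon-γ, measured 36.6 ± 3.86 CPM on chow and 23.6 ± 3.45 CPM on KD (SD, n = 4 each), with a log2 fold change of -0.63 (SE 0.16) and an adjusted p of 0.193 by edgeR and 0.04 by DESeq2. Of the 25 tested upstream genes, 1 was called, and it was lower in KD, beside 0.508% of all tested genes called in either direction. An unadjusted p under 0.05 was reached by 7 of the 25 (28% against 8.64% of all tested genes). The diets did not overlap for 6 of the 25 (24% against 6.05%). Their fold changes were positive for 11 and negative for 14, with a median of -0.04. Socs3, a feedback inhibitor of cytokine receptors, fell from 290 ± 34.2 CPM on chow to 187 ± 21.5 CPM on KD, with a log2 fold change of -0.64 (adjusted p = 0.041, SE 0.11). Its adjusted p was 0.0713 with the replicate number as a block, and stayed under the threshold in 1 of the 8 fits that leave out a library, the one without chow 1 (0.0419), the others giving 0.0713 to 0.15.

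A further 44 interferon-induced genes were listed apart from the 35. Of 40 found by symbol, 39 were tested, 1 was called higher and 0 lower, and 24 had positive and 15 negative fold changes, with a median of 0.05. An unadjusted p under 0.05 was reached by 6 of the 39 (15.4% against 8.64% of all tested genes), and the diets did not overlap for 4 (10.3% against 6.05%). Lgals3bp, which encodes a secreted glycoprotein, rose from 446 ± 21 CPM on chow to 608 ± 46.4 CPM on KD (SD, n = 4 each), a log2 fold change of 0.45 (adjusted p = 0.0381, SE 0.08). Its adjusted p was 0.101 with the replicate block, and between 0.0538 and 0.139 when any 1 library was left out. Phf11b measured 59.7 ± 8.41 CPM on chow and 103 ± 18.2 CPM on KD (log2 fold change 0.78, SE 0.15), with an adjusted p of 0.0703 by edgeR and 0.000395 by DESeq2. Ifitm3, whose product blocks virus entry, measured 6.73, 1.27, 2.53 and 6.39 CPM on chow and 1.62, 7.34, 37.2 and 69.4 CPM on KD. KD 3 and KD 4 stood far above the others, and the log2 fold change of 2.77 (adjusted p = 0.41, SE 0.97) was 0.08 without them. Endothelial markers were also highest in these libraries (409 and 673 CPM), and the part of that RNA in the level of Ifitm3 was not tested.

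Most of the genes best known for induction by interferon-γ had negative fold changes, and none was called. Of 24 tested, 3 had positive and 21 negative fold changes, with a median of -0.27, beside 0.02 for the type I interferon response genes and 0.01 for all tested genes. An adjusted p under 0.05 was reached by 0 of the 24 by edgeR, and an unadjusted p under 0.05 by 13, which is 54.2% against 8.64% of all tested genes. DESeq2 called 3 of the 24, Igtp, Gbp6 and Gbp2. The diets did not overlap for 7 of the 24, which is 29.2% against 6.05% of all tested genes. Several of the 24 belong to the same gene families, such as the Gbp genes, so they need not be separate observations. Igtp, a GTPase that guards against parasites inside cells, measured 263 ± 27.8 CPM on chow and 190 ± 16.3 CPM on KD (SD, n = 4 each; log2 fold change -0.47, adjusted p = 0.0904, SE 0.10 by edgeR). The guanylate-binding proteins Gbp6 and Gbp2 gave log2 fold changes of -0.53 (adjusted p = 0.158, SE 0.13) and -0.38 (adjusted p = 0.216, SE 0.10). The list and its comparison with the type I genes were chosen with these data known, so the difference between the lists was not tested.

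**Figure D5:**
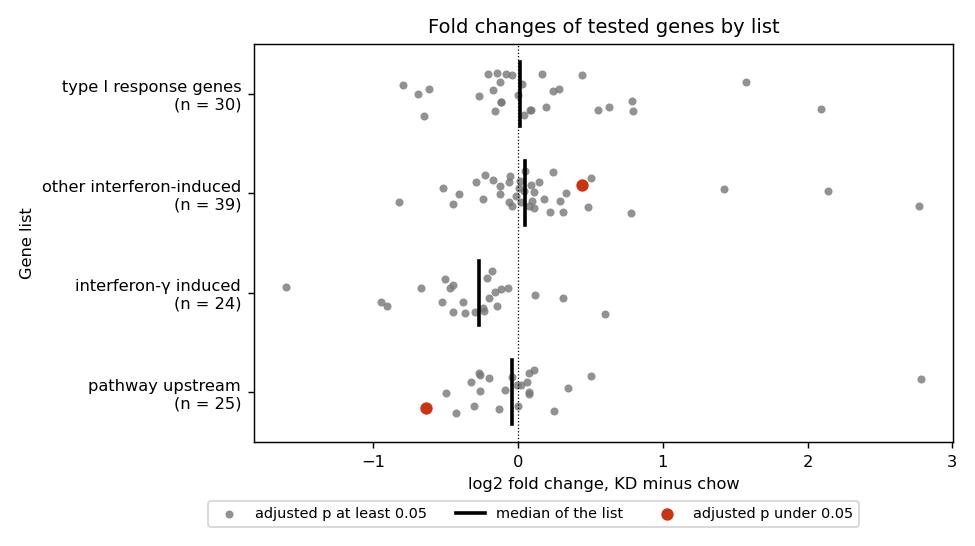
Log2 fold changes, KD minus chow, of the tested genes in 4 lists, with each list's median as a black bar. The type I interferon response genes centre near 0 (median 0.02), the interferon-γ induced genes lie mostly below 0 (median -0.27), and the red points are Lgals3bp and Socs3.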

How the data were processed

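PolyA RNA of 4 chow and 4 KD samples was compared. The authors deposited estimated counts per gene and FPKM values for the same samples; the submitters' processing notes name BWA, TopHat2, RSEM and DESeq2 and, as the mouse build, GRCm38; they give no version and no role. In each sample 5310 to 5802 of the deposited estimated counts were not whole, and all were rounded. The deposited FPKM values served only for levels between genes. Where a symbol stood on 2 rows (Gbp6 and Itgam), the row with more counts was used. Columns were matched to samples by title.

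Genes that passed filterByExpr of edgeR (count minimum 10, total minimum 15) were tested with edgeR's two-sided quasi-likelihood F test (robust, TMM scaling, 1 term for diet). P-values were adjusted after Benjamini and Hochberg over all 13397 genes, with 0.05 as the threshold. CPM uses TMM-scaled library sizes. SE is the log2 fold change divided by the square root of F. The fits used edgeR 4.0.16 on limma 3.58.1, and DESeq2 1.42.0 as an alternative, in R 4.3.3, and the scripts were tested on simulated data. The floor covers counting error alone, because reads lacking molecular identifiers need not be independent molecules. No pair of libraries held counts that agree within sampling noise.

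The 35 genes and the other lists were chosen with earlier results of these data known. Every one of the 35 is named; of the other lists, genes past the threshold and the 3 with the smallest p are named, and Ifnar1, Ifnar2, Jak1, Ifnb1 and Ifnk were added for their roles. Some genes of these lists are not reported here. Shared transcript windows of 50 bases and exon overlaps come from GENCODE M21 on GRCm38. Alternatives were RLE scaling, library size alone, no count filter, DESeq2, a block for the replicate number, leaving out each library, and leaving out KD 3 and KD 4 together. Single-cell data of the series were not analysed here.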

Additional observations from a re-analysis of the deposited data

Results flagged for a closer look

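In 64 groups of 4 libraries (a type I interferon response gene in a diet, with at least 10 counts in some library), the highest or lowest value was set against the other 3 by its gap, and 6 values stood apart. Chance sets about 1 in 20 such groups apart if values are normally distributed, which CPM values need not be. The share of all tested genes with a high or low value apart was not computed. Of the 6, 4 were high values in KD 4, where Ifit3 reached 28.9 CPM, Ifit1 12.1 CPM, Ifit3b 9.17 CPM and Ifi44 5.74 CPM. Of all tested genes, 1.1% stood apart as high in KD 4, and at most 1.96% did so in any other library. Those shares leave out genes that failed the count filter, whereas the 64 groups include Ifi44, Oasl1 and Mx2, which failed it. Ifit1, Ifit3 and Ifit3b lie in a cluster, and Ifit3 and Ifit3b share sequence, so these are not separate observations. Without KD 4 the log2 fold change was -0.33 for Ifit3 and -0.02 for Ifit3b.

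Oasl1 in chow 1 was high at 3.05 CPM, against 0 to 0.397 CPM in the other chow libraries. Ifi35 in KD 1 was low at 58.9 CPM.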

How the results depend on the processing

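The count of type I interferon response genes called was 0 under every alternative run, and the lowest adjusted p that any of them reached was 0.388. Of 420 alternative fold changes of single genes, 388 kept their sign and 32 in 13 genes did not. Genes called over the whole table went from 68 to 292 with DESeq2, 12 with the replicate block, 4 without KD 3 and KD 4 together and 12 to 44 when each library was left out. Calls among the other pathway genes went from 2 to 8 with DESeq2, 0 with the replicate block, 0 without KD 3 and KD 4 and 0 to 1 when each library was left out. The cause was not tested. Deviations of samples with the same replicate number were hardly correlated across genes (-0.114 to 0.0536). The labels do not say whether equal numbers were paired, so the block is only an alternative. Medians of the type I genes cover those that passed the count filter in each fit. The median log2 fold change, 0.015 in the main fit, was -0.217 without KD 3 and KD 4. It ran from -0.131 (without KD 4) to 0.089 when each library was left out. Without KD 3 and KD 4 the log2 fold change was -0.89 for Ifih1, -0.46 for Ifit3, -0.63 for Rsad2, -0.038 for Stat2 and -0.25 for Xaf1. For Ddx58 it was -0.00014 with RLE scaling, -0.00013 with DESeq2 and -0.0077 with no count filter. When each library was left out it ran from -0.17 to 0.15 for Ddx58, -0.14 to 0.016 for Ifi35, -0.48 to 0.46 for Ifih1, -0.33 to 1.08 for Ifit3, -0.023 to 2.56 for Ifit3b, -0.09 to 0.12 for Irf9 and -0.84 to 0.22 for Oasl2. It ran from -0.80 to 0.38 for Rsad2, -0.22 to 0.09 for Samd9l, -0.33 to 0.08 for Slfn5, -0.019 to 0.17 for Stat2, -0.27 to 0.031 for Trim30a and -0.13 to 0.24 for Xaf1. Leaving out 1 library also moved values of unchanged sign by over 1.5 times, to 0.13 for Herc6 (without chow 1), -0.15 for Parp9 (without chow 4), 0.27 for Parp14 (without KD 3), 0.12 for Bst2 (without chow 2), and -0.015 for Eif2ak2 (without chow 1). For Isg15 it gave -0.026 without KD 2 and -0.35 without KD 4, for Ifi27 -0.091 without KD 1 and -0.32 without KD 3, and for Zbp1 -0.038 without KD 2 and -0.22 without chow 2. Fold changes of Mx1 and Ifit3b rest on few counts, and their intervals are wide. The interval of Rsad2 is also wide, and its libraries spread from 0 to 8.14 CPM.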

Other observations

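Iigp1, an interferon-γ induced GTPase gene, measured 19.0, 15, 11.0 and 13.3 CPM on chow and 5.91, 6.85, 6.88 and 43.4 CPM on KD. KD 1, KD 2 and KD 3 lay below all chow libraries, and KD 4 lay above them. For Ifit3, too, KD 4 was the highest library, but KD 2 and KD 3 lay within the range of chow. Iigp1 was chosen after its values were seen.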
